A study of Mus musculus with 13 samples.

Results

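Potassium channel genes were followed in motoneurons of SOD1-G93A mice, a model of amyotrophic lateral sclerosis. The members are all protein-coding mouse genes whose GENCODE symbol starts with Kcn. They number 94, and each was matched by its Ensembl identifier to a row of the count tables, among 48709 gene rows in all. A member is described where it reached at least 10 counts in 4 or more libraries. By that rule 76 of the 94 are reported and 18 fall below it, and 52 reached 10 counts in all 13 libraries. The same rule kept 17599 genes of the whole series.

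Every mouse carried the SOD1-G93A transgene and was 65 days old, so all 3 groups share the mutant background and none is a healthy control. In the AAV-miR SOD1 group (4 libraries), a vector that makes an artificial microRNA against human SOD1 in astrocytes was given into the cerebral ventricles at postnatal day 2. In the AAV-miR ctrl group (5 libraries), mice received a control vector by the same route and at the same age. The Non-injected group (4 libraries) consists of untreated littermates. The promoter that restricts the vector to astrocytes is not named in the labels. Each library came from 1 mouse and a pool of 500 motoneurons, cut by laser from cresyl violet stained sections of lumbar spinal cord embedded within its vertebrae. The design asks how the motoneuron transcriptome differs after mutant SOD1 is lowered in astrocytes.

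Potassium channels let potassium leave the cell and so set the resting potential, end the action potential and limit how fast a neuron fires. The Kcn symbols cover voltage-gated pores (Kcna to Kcnd, Kcnh, Kcnq), inward rectifiers (Kcnj), tandem-pore leak channels (Kcnk), calcium-activated and sodium-activated channels (Kcnm, Kcnn, Kcnt), and subunits that form no conducting pore of their own (Kcnab, Kcne, Kcnf, Kcng, Kcnip, Kcns, Kcnv). In motoneurons, leak and inward rectifier channels determine how easily the cell is excited, and delayed rectifiers and calcium-activated channels shape its repetitive firing.

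Levels are in CPM, counts per megacount of a library. Each library held between 13.9 and 37.4 megacounts, and 3 counts corresponded to between 0.0802 and 0.216 CPM. The 4 libraries numbered 5 and 6 are all controls and held 29.7 to 37.4 megacounts, against 13.9 to 23.1 in those numbered 1 to 4, so number and group cannot be told apart for them. In 2 libraries, both replicate 3 (of AAV-miR ctrl and of Non-injected), the column header inside the file names the other group. The labels were followed, and counts without both libraries are given beside the results. All 6 motoneuron markers (Chat, Slc5a7, Slc18a3, Isl1, Mnx1 and Prph) were detected in every library. Their summed level was 523 to 1025 CPM in AAV-miR SOD1, 732 to 2262 in AAV-miR ctrl and 905 to 2319 in Non-injected libraries. Markers of other cells were present too: 4 muscle genes summed to between 5649 and 86849 CPM, and 5 erythroid genes to between 2529 and 33640 CPM. In such bulk libraries, fewer cells of a type and less RNA per cell cannot be told apart.

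Levels of different genes are set side by side only per kilobase of annotated exons, as CPM per kb. Over the 9 control libraries the highest was Kcng4 at 47.1 ± 16.1 CPM per kb (SD, n = 9). It encodes a silent subunit that conducts only together with Kcnb pores and is known as a label of alpha motoneurons. Next in order came Kcna1 at 26.9 ± 5.54, Kcnab2 at 23.6 ± 5.52 and Kcnk1 at 16.8 ± 5.99 CPM per kb. Below these, and within each other's spread, stood Kcnab1 at 13.3 ± 3.898, Kcnk3 at 12.9 ± 4.46, Kcnc4 at 11.8 ± 4.26 and Kcnj14 at 11.1 ± 4.505 CPM per kb. Thus 9 members were over 10 CPM per kb, 33 were between 1 and 10, and 34 were at 1 or less.

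The subfamilies differed in which member led. Within Kcnd it was Kcnd1 (3.02 ± 0.923 CPM per kb), above Kcnd2 (0.977 ± 0.351) and Kcnd3 (0.291 ± 0.180). Within Kcnn, the intermediate-conductance gene Kcnn4 (4.25 ± 3.01) and Kcnn1 (3.71 ± 0.737) were above Kcnn2 (1.35 ± 0.313) and Kcnn3 (0.242 ± 0.128). Kcnma1, the pore of the large-conductance calcium-activated channel, was at 1.71 ± 0.527 CPM per kb. Kcnk9, the acid-sensitive relative of Kcnk3, was last of the 76 at 0.0453 ± 0.0401 CPM per kb.

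**Figure D1:**
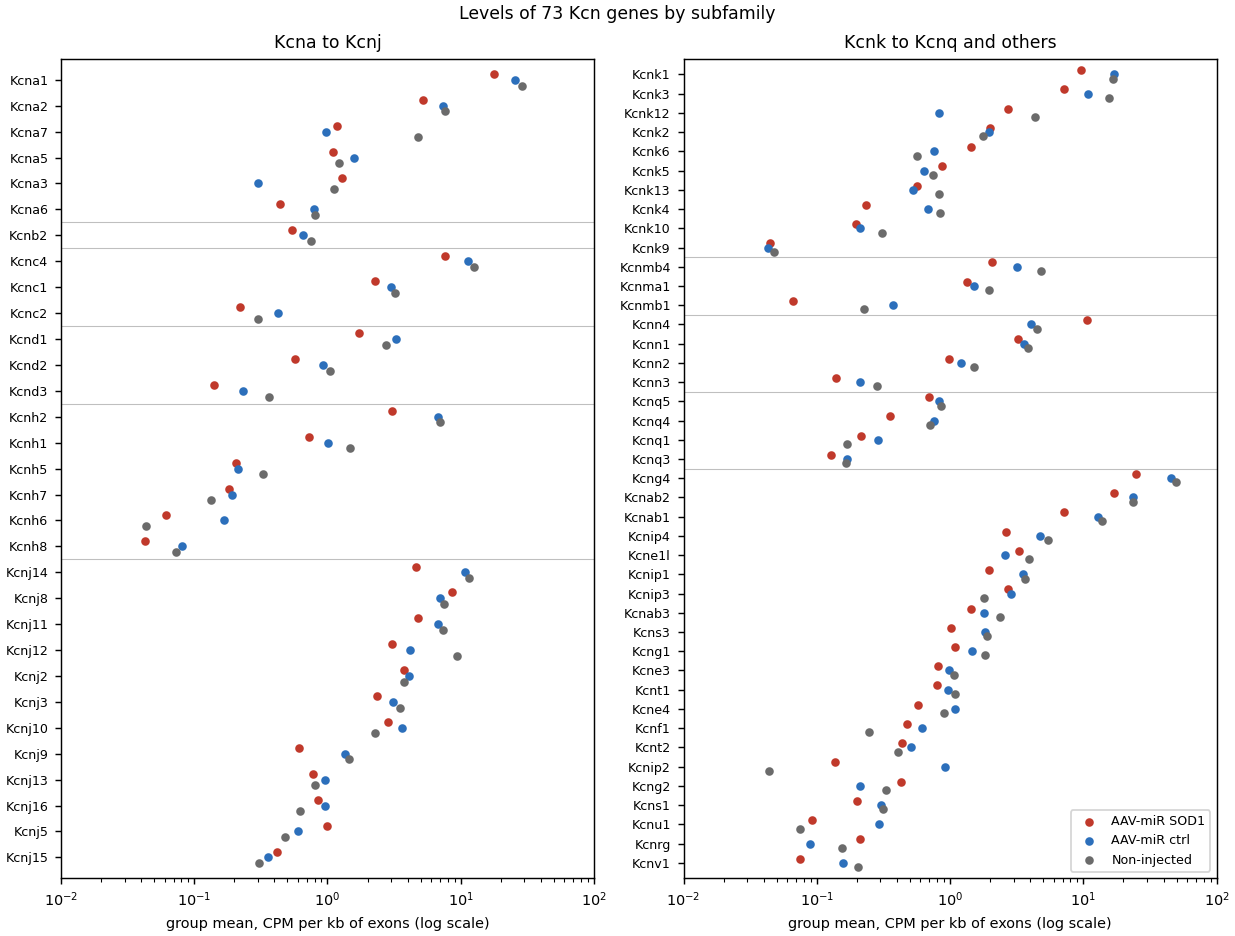
Group means of 73 Kcn genes, in CPM per kb of exons on a logarithmic axis, by subfamily, with 1 point per group. Kcng4 and Kcna1 lie farthest right, and 34 genes lie at 1 CPM per kb or less in the control libraries.

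Of the 74 potassium channel genes both reported and tested, 50 had their lowest group mean in motoneurons of AAV-miR SOD1 mice. This count was not made over all genes, so it has no share to stand beside. By another measure, a fold change below 0 against both control groups, the share was 77.0% of members and 54.2% of all genes. Kcnh2, the ERG channel gene, averaged 14.8 ± 1.58 CPM (SD, n = 4) there and 33.3 ± 10.8 CPM in the control libraries (n = 9). Kcnab1, a beta subunit of Kcna channels, averaged 61.4 ± 8.75 and 115 ± 33.5 CPM, the inward rectifier gene Kcnj14 12.5 ± 1.91 and 30.2 ± 12.2 CPM, and Kcng4 93.97 ± 21.8 and 179 ± 61.3 CPM. Kcnn4, the channel gene of red cells and immune cells, had the opposite order, at 54.9 ± 44.01 and 21.7 ± 15.4 CPM. In the main edgeR test described next, no single member passed the adjusted threshold.

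The count test of edgeR was fitted to 17403 genes, among them 74 reported members. Kcnh8 and Kcnrg were too low to enter it. At an adjusted p under 0.05 (Benjamini-Hochberg over all genes tested) it called 0 members in each of the 4 comparisons, where it called 0% of all genes as well. The smallest adjusted p among members was 0.256 against AAV-miR ctrl, 0.140 against Non-injected and 0.0960 against both control groups. The counts below therefore use the unadjusted threshold of 0.05 and describe the members beside all genes, with no claim that any single member differs.

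Against AAV-miR ctrl, 14 of the 74 members were lower in AAV-miR SOD1 and 0 were higher at that threshold, where 8.54% of all genes were lower and 5.99% higher. Against Non-injected mice, 24 members were lower and 0 higher, beside 11.5% and 9.36% of all genes. Against both control groups, 25 members passed, 23 lower and 2 higher, beside 12.1% and 10.2% of all genes. Between AAV-miR ctrl and Non-injected mice, 4 members were lower and 2 higher in AAV-miR ctrl, beside 2.24% and 1.38% of all genes. The 3 comparisons of AAV-miR SOD1 use the same 4 AAV-miR SOD1 libraries, so they are not separate evidence.

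The median log2 fold change over the 74 members was -0.41 against AAV-miR ctrl, where the median over all genes was -0.04. It was -0.57 against Non-injected mice (all genes -0.09), -0.50 against both control groups (all genes -0.06) and -0.11 between AAV-miR ctrl and Non-injected mice (all genes -0.01). Against both control groups 57 of the 74 members, or 77.0%, had a fold change below 0, compared with 54.2% of all genes. The AAV-miR SOD1 group had the lowest of the 3 group means for 50 members, AAV-miR ctrl for 10 and Non-injected for 14, a count not made over all genes.

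**Figure D2:**
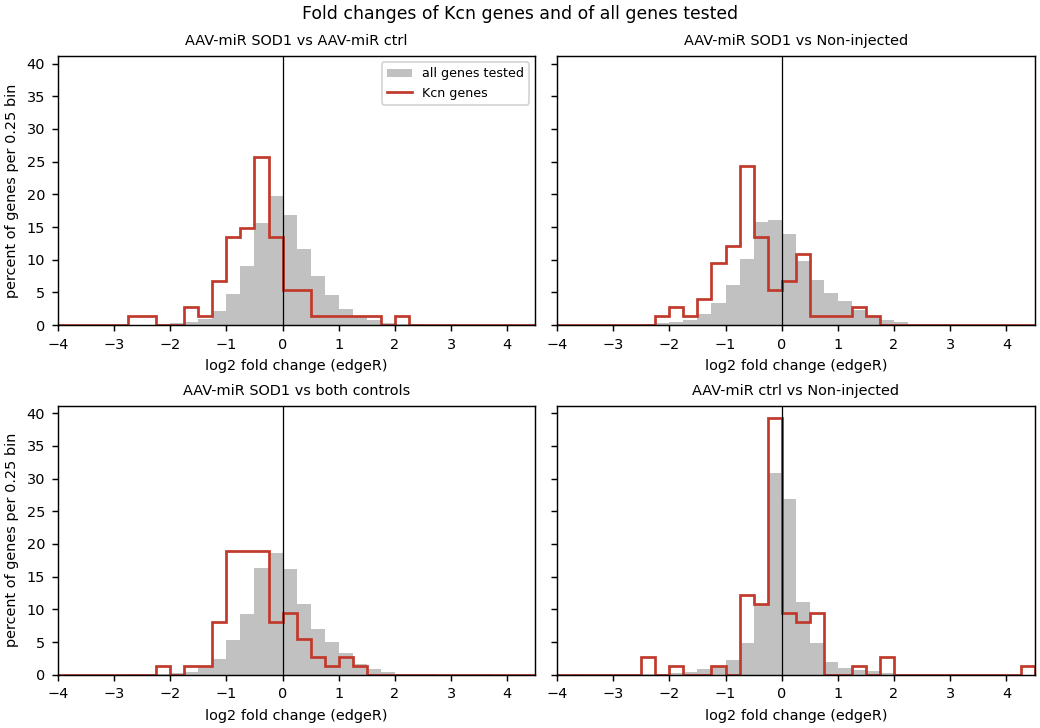
Distribution of log2 fold changes of the 74 tested Kcn genes (red outline) and of all 17403 genes (grey), as the percent of genes per bin, in 4 panels, 1 per comparison. In the 3 comparisons of AAV-miR SOD1 the Kcn outline lies to the left of the grey one, with medians of -0.41, -0.57 and -0.50.

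Members whose libraries did not overlap between groups were few. Against AAV-miR ctrl, 3 members (Kcnab1, Kcnd1 and Kcnh2) had every AAV-miR SOD1 library below every AAV-miR ctrl library, beside 2.46% of all genes. Against Non-injected mice this held for 11 members (among them Kcna1, Kcnab1, Kcnh1, Kcnh2, Kcnip4, Kcnj12, Kcnj14, Kcnk3, Kcnk4 and Kcnmb4), beside 5.81% of all genes. For the 9 control libraries together it held for Kcnab1 and Kcnh2 alone among the 74, beside 1.23%. Between AAV-miR ctrl and Non-injected mice 0 members were separated in this way, beside 0.517% of all genes. No member was higher in every AAV-miR SOD1 library than in every library of either control group. Of the 17403 genes tested this held for 221 against AAV-miR ctrl, 1027 against Non-injected mice and 103 against both.

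Calls depended on the count model. DESeq2, run on the same genes, called Kcnh2 alone lower among the members in the comparison with AAV-miR ctrl, at an adjusted p under 0.05, which makes 1 member beside 0.58% of the genes it gave an adjusted p. It called 8 lower against Non-injected mice, beside 3.31%, 10 lower against both control groups, beside 5.51%, and 0 between AAV-miR ctrl and Non-injected mice, where 0% of genes were called lower. It called no member higher. Of the 74 members, 8 had no adjusted p against AAV-miR ctrl, 11 against Non-injected mice and 10 against both control groups. The same held for 2412, 3082 and 2747 of the 17403 genes, in that order. Among the 17403 genes DESeq2 called 93 higher against AAV-miR ctrl, 551 against Non-injected mice, 714 against both and 2 between the control groups. Among the 10 members called lower against both control groups were Kcna1, Kcnab1, Kcnd1, Kcng4, Kcnh2, Kcnj14, Kcnk3, Kcnk4 and Kcnmb4.

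Single libraries and the libraries numbered 5 and 6 moved these counts. Without AAV-miR ctrl replicate 1, edgeR called 9 members lower against both control groups, beside 9.84% of all genes called in either direction. These 9 included Kcnab1, Kcng4, Kcnh2, Kcnj12, Kcnj14, Kcnk3, Kcnk4 and Kcnmb4. Without both libraries whose headers contradict their labels, 14 members passed the unadjusted threshold against both control groups, beside 17.6% of all genes in both directions, and 11 against Non-injected mice, beside 12.7%. All of these were lower. Among the libraries numbered 1 to 4 alone (4 AAV-miR SOD1, 3 AAV-miR ctrl and 2 Non-injected), 8 of 75 members passed against AAV-miR ctrl, 6 lower and 2 higher, beside 4.88% of all genes. Against both control groups 18 passed there, 15 lower and 3 higher, beside 14.2%. The medians there were -0.33 and -0.40, beside -0.04 and -0.005 over all genes. In that fit the smallest adjusted p among the members named below was 0.322 against both control groups, 0.290 against Non-injected mice and 0.8935 against AAV-miR ctrl. Its fold changes against both control groups are given beside those of all libraries. Against AAV-miR ctrl its log2 fold changes were -0.68 for Kcnab1, -0.42 for Kcng4, -0.91 for Kcnd1, -0.67 for Kcnh2, -0.57 for Kcnj14 and -0.54 for Kcnmb4.

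**Figure D3:**
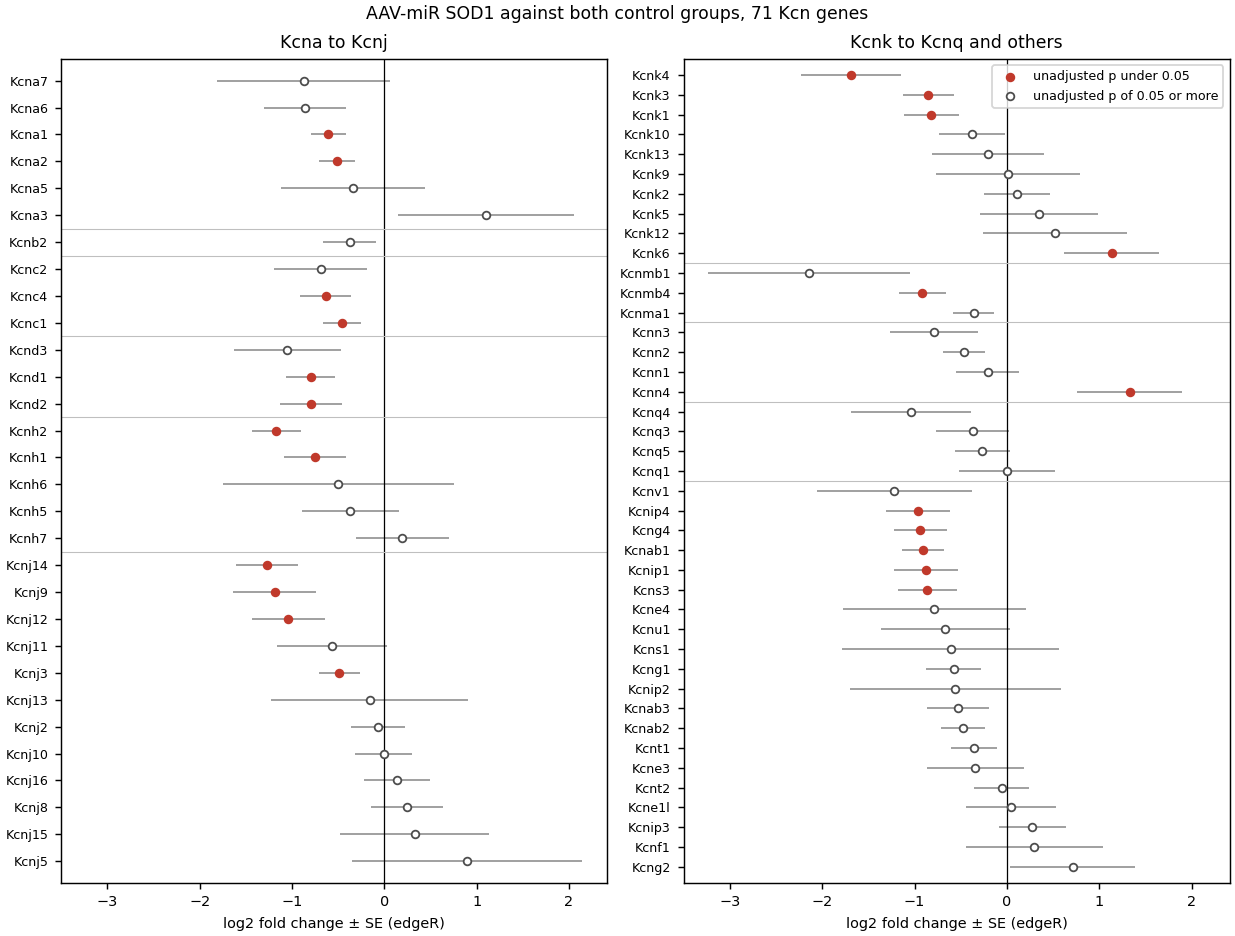
Log2 fold change ± SE (edgeR) of 71 Kcn genes in AAV-miR SOD1 against both control groups, by subfamily, with filled points where the unadjusted p is under 0.05. Of the 23 filled points 21 lie below 0, and the 2 above 0 are Kcnn4 and Kcnk6.

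Of the Kcna genes, which form low-threshold channels that keep a neuron from firing repeatedly at rest, 2 of 6 tested were lower against both control groups and 0 higher. Of all genes 12.1% were lower and 10.2% higher. The median log2 fold change of the 6 was -0.56. Kcna1 (chr6:126640397-126646384) was at 67.8, 101, 70.7 and 100.5 CPM in AAV-miR SOD1, 100.04, 98.4, 126, 141 and 139 CPM in AAV-miR ctrl and 116, 185, 136 and 115 CPM in Non-injected libraries. All 4 AAV-miR SOD1 libraries lay below all 4 Non-injected ones, but replicates 2 and 4 lay above AAV-miR ctrl replicates 1 and 3. The log2 fold change against both control groups was -0.61 ± 0.19 (SE; adjusted p = 0.109), and -0.57 ± 0.22 among libraries numbered 1 to 4. Kcna2 (chr3:107101146-107115005), which joins Kcna1 in channels beside the nodes of myelinated axons, was at 48.3, 65.6, 46.3 and 88.1 CPM in AAV-miR SOD1, 67.4, 89.4, 84.2, 102 and 93.3 in AAV-miR ctrl and 95.8, 109, 75.3 and 80.1 in Non-injected libraries. Replicate 4 lay among the control values and the other 3 below all of them. Its log2 fold change was -0.51 ± 0.20 (adjusted p = 0.148), and -0.53 ± 0.23 among libraries numbered 1 to 4. Kcna6 ranged over 1.63 to 4.55 CPM in AAV-miR SOD1 and 0.948 to 6.52 CPM in the control libraries, and did not pass the threshold. Kcna3 and Kcna5 did not pass it either, and both varied widely within groups: Kcna3 ran from 0.695 to 6.59 CPM in AAV-miR SOD1, with replicate 1 highest.

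The Kcnab genes encode the cytoplasmic beta subunits that bind Kcna pores and speed their inactivation or help their transport. Kcnab1 (chr3:65109384-65378223) had the second smallest p of all members against both control groups. It was at 50.7, 64.3, 59.2 and 71.5 CPM in AAV-miR SOD1, 75.3, 106, 116, 134 and 124 CPM in AAV-miR ctrl and 87.1, 190.1, 103 and 97.1 CPM in Non-injected libraries. Every AAV-miR SOD1 library was below every control library, the nearest control being AAV-miR ctrl replicate 1. The log2 fold change was -0.85 ± 0.25 against AAV-miR ctrl, -0.96 ± 0.26 against Non-injected mice and -0.91 ± 0.23 against both (adjusted p = 0.0960). Among libraries numbered 1 to 4 it was -0.92 ± 0.25. Kcnab2, with a mean of 94.6 ± 31.6 CPM in AAV-miR SOD1 and 132 ± 30.8 CPM in control libraries, and Kcnab3, with 4.12 ± 1.99 and 5.91 ± 1.81 CPM, did not pass the threshold.

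Because Kcnab1 and Kcnh2 are the members whose libraries did not overlap with either control group, the 250 bases before their RefSeq start (GRCm38.p6) are shown, 5′ to 3′ on the gene's strand, with the GC box letters GGGCGG in capitals where they occur. RefSeq lists 3 starts for Kcnab1, and the window shown is the start nearest the 5′ end of the GENCODE gene, 370 bases from it. For Kcnh2 the table holds 1 start, which lies 22013 bases inside the GENCODE gene and so belongs to a shorter transcript.
Kcnab1, chr3:65108764-65109013, plus strand: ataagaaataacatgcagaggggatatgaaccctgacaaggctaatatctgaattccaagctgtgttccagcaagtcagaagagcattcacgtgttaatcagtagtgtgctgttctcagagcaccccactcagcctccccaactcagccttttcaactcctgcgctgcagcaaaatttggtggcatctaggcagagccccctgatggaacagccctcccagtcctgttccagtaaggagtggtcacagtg
Kcnh2, chr5:24329592-24329841, minus strand: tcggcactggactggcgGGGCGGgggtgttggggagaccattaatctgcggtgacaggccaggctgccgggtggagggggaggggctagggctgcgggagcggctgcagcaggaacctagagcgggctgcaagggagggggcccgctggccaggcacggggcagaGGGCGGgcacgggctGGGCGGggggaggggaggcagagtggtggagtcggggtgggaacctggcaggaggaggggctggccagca
The Kcnh2 window has a GC content of 73.6% and holds 3 GC boxes. That of Kcnab1 has a GC content of 50% and holds 0.

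Over the reported members, 55 of 76 had a window in the RefSeq table. A GC box on either strand was in 25 of the 55 (45.5%), compared with 39.4% of 20590 windows of all genes. Searched on both strands, the letters TATAAA were in 2 member windows (3.64%) and in 12.2% of all windows. The letters CCAAT were in 17 (30.9%) and in 35.1% of all windows, and the cAMP response element TGACGTCA was in 0 and in 1.91%. Neither of the windows shown contains TATAAA or TGACGTCA.

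Silent subunits pair with Kcnb pores, which carry delayed rectifier currents, and shift their gating. The pore gene Kcnb2 was at 8.18 ± 2.92 CPM in AAV-miR SOD1 and 10.6 ± 3.81 CPM in control libraries and did not pass the threshold. Kcng4 (chr8:119623854-119635680) was at 77.4, 118, 73.6 and 107 CPM in AAV-miR SOD1, 108, 117, 156, 246 and 238 CPM in AAV-miR ctrl and 104, 260.2, 203 and 182 CPM in Non-injected libraries. Replicates 1 and 3 were below all 9 control libraries, and replicates 2 and 4 lay among the lowest controls. On the log2 scale the difference was -0.88 ± 0.31 against AAV-miR ctrl, -0.995 ± 0.33 against Non-injected mice and -0.94 ± 0.29 against both (adjusted p = 0.105), and -0.68 ± 0.29 among libraries numbered 1 to 4. Kcns3 (chr12:11090202-11151056), also silent on its own, was at 2.89, 3.504, 3.98 and 2.53 CPM in AAV-miR SOD1, 4.46, 6.75, 5.55, 3.94 and 8.16 in AAV-miR ctrl and 3.04, 8.48, 5.14 and 7.33 in Non-injected libraries. Non-injected replicate 2 and AAV-miR ctrl replicate 5 fell within the AAV-miR SOD1 range, and the other 7 controls were above it. With both control groups as the reference, the log2 fold change was -0.86 ± 0.32 (adjusted p = 0.139), and -0.80 ± 0.37 among libraries numbered 1 to 4. Kcns1, Kcnf1, Kcng1, Kcng2 and Kcnv1 did not pass. Kcns1 ran from 0.0948 to 1.39 CPM in AAV-miR SOD1 and from 0 to 2.03 CPM in control libraries.

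The Kcnc genes form high-threshold channels that end the action potential quickly and allow fast firing, and Kcnc1 and Kcnc4 were lower against both control groups. Kcnc4 (chr3:107438303-107459552) was at 24.7, 25.3, 33.3 and 28.6 CPM in AAV-miR SOD1, 22.6, 29.01, 36.2, 60.3 and 58.2 in AAV-miR ctrl and 30.6, 49.6, 37.1 and 66.01 in Non-injected libraries. Its high values were those of AAV-miR ctrl replicates 5 and 6 and Non-injected replicates 3 and 6, and the groups overlapped at AAV-miR ctrl replicates 1 and 3 and Non-injected replicate 2. Kcnc1 (chr7:46396497-46438704) was at 20.3, 15.7, 18.9 and 31.04 CPM in AAV-miR SOD1, 23.9, 30.3, 31.8, 24.2 and 31.8 in AAV-miR ctrl and 29.98, 27.05, 25.1 and 40.3 in Non-injected libraries. Replicate 4 lay among the controls and the other 3 below all of them. The log2 fold changes against both control groups were -0.64 ± 0.28 for Kcnc4 and -0.46 ± 0.21 for Kcnc1 (adjusted p = 0.199 and 0.210). Among libraries numbered 1 to 4 they were -0.28 ± 0.22 and -0.40 ± 0.23 in the same order. Neither passed the threshold against AAV-miR ctrl alone. Kcnc2, at 1.58 ± 0.670 CPM in AAV-miR SOD1 and 2.64 ± 1.55 CPM in control libraries, did not pass.

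The Kcnd genes carry the A-type current, which opens below threshold and delays firing, and 2 of 3 were lower against both control groups. This stood beside 12.1% of all genes, and the median log2 fold change of the 3 was -0.80. Kcnd1 (chrX:7822289-7838280) was at 6.54, 10.9, 7.91 and 10.9 CPM in AAV-miR SOD1, 12.5, 24.3, 14.7, 15.6 and 18.9 CPM in AAV-miR ctrl and 9.595, 21.6, 15.6 and 10.9 CPM in Non-injected libraries. All AAV-miR SOD1 libraries were below all AAV-miR ctrl libraries, and Non-injected replicates 2 and 6 fell within their range. The log2 fold change was -0.92 ± 0.29 against AAV-miR ctrl (adjusted p = 0.256) and -0.80 ± 0.26 against both control groups (adjusted p = 0.116), and -0.83 ± 0.33 among libraries numbered 1 to 4. Kcnd2 (chr6:21215503-21729805) was at 2.67, 2.74, 2.08 and 4.17 CPM in AAV-miR SOD1, 4.73, 6.46, 5.02, 3.89 and 3.62 in AAV-miR ctrl and 3.14, 7.74, 7.54 and 3.16 in Non-injected libraries, with replicate 4 above 4 of the 9 controls and replicates 1 to 3 below all of them. Its log2 fold change was -0.80 ± 0.34 (adjusted p = 0.189), and -0.88 ± 0.37 among libraries numbered 1 to 4. Kcnd3, at 1.34 ± 1.08 CPM in AAV-miR SOD1 and 2.79 ± 1.72 CPM in control libraries, did not pass.

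Kcnip proteins are calcium sensors that bind Kcnd pores and bring them to the membrane. Kcnip4 (chr5:48389502-49524907) was at 6.72, 12.1, 10.6 and 8.41 CPM in AAV-miR SOD1, 9.23, 18.7, 10.05, 28.4 and 20.04 CPM in AAV-miR ctrl and 17.4, 34.3, 14.5 and 12.6 CPM in Non-injected libraries. All 4 AAV-miR SOD1 libraries lay below all Non-injected ones, and AAV-miR ctrl replicates 1 and 4 lay among them. Its log2 fold change was -0.96 ± 0.35 (adjusted p = 0.134), and -0.92 ± 0.32 among libraries numbered 1 to 4. Kcnip1 (chr11:33629339-33993152) was at 8.77, 18.5, 7.87 and 13.7 CPM in AAV-miR SOD1, 13.9, 14.1, 14.1, 36.7 and 31.3 in AAV-miR ctrl and 14.4, 25.8, 29.5 and 21.3 in Non-injected libraries. Replicate 2 was above 4 control libraries and the other 3 were below all of them. With both control groups as the reference, the log2 fold change was -0.88 ± 0.34 (adjusted p = 0.157), and -0.44 ± 0.31 among libraries numbered 1 to 4. Kcnip3 was at 9.71 ± 4.13 CPM in AAV-miR SOD1 and 8.49 ± 4.34 CPM in control libraries and did not pass.

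Kcnh2 encodes the ERG channel, which closes slowly and adds a brake on repetitive firing. It had the smallest p of all members against both control groups. Kcnh2 (chr5:24319589-24351604) was at 15.4, 14.4, 12.8 and 16.6 CPM in AAV-miR SOD1, 28.5, 18.5, 24.1, 49.98 and 43.5 CPM in AAV-miR ctrl and 23.7, 42.1, 39.5 and 29.9 CPM in Non-injected libraries. The 4 AAV-miR SOD1 values lay close together and below all 9 control values, the nearest control being AAV-miR ctrl replicate 3, a library with a contradicting header. The log2 fold change was -1.15 ± 0.29 against AAV-miR ctrl (adjusted p = 0.256), -1.19 ± 0.30 against Non-injected mice (adjusted p = 0.140) and -1.17 ± 0.27 against both (adjusted p = 0.0960). Among libraries numbered 1 to 4 it was -0.90 ± 0.24 against both and -0.67 ± 0.26 against AAV-miR ctrl. The highest control values, in AAV-miR ctrl replicates 5 and 6, are left out there. The RefSeq window shown above belongs to the shorter Kcnh2 transcript, which cannot be told apart from the longer one in counts per gene.

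Kcnh1 (chr1:192190774-192510159), the ether-a-go-go channel, was at 5.298, 6.96, 2.27 and 6.76 CPM in AAV-miR SOD1, 5.35, 4.63, 5.85, 9.31 and 11.9 CPM in AAV-miR ctrl and 10.2, 14.3, 9.31 and 9.24 CPM in Non-injected libraries. All AAV-miR SOD1 libraries were below all Non-injected ones, and AAV-miR ctrl replicates 1, 3 and 4 lay among them. The log2 fold change was -1.02 ± 0.39 against Non-injected mice (adjusted p = 0.167) and -0.75 ± 0.34 against both control groups (adjusted p = 0.210), and -0.57 ± 0.36 among libraries numbered 1 to 4. The other 3 Kcnh genes tested did not pass. Kcnh7, a further ERG gene, was at 2.77 ± 0.978 CPM in AAV-miR SOD1 and 2.53 ± 1.67 CPM in control libraries, Kcnh5 at 0.831 ± 0.128 and 1.07 ± 0.729, and Kcnh6 at 0.216 ± 0.284 and 0.398 ± 0.517.

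Kcnq3 and Kcnq5, which contribute to the M current that damps repetitive firing, did not pass the threshold in any comparison. Kcnq3 had means of 1.89 ± 0.489 CPM in AAV-miR SOD1 and 2.45 ± 1.08 CPM in control libraries, and Kcnq5 of 5.38 ± 1.72 and 6.46 ± 1.95 CPM. Of the Kcne genes, whose short subunits modify Kcnq and other pores, Kcne3 was at 1.43 ± 0.568 and 1.81 ± 1.105 CPM and Kcne4 at 1.53 ± 0.969 and 2.67 ± 2.53 CPM. Neither passed. Per kb, Kcne1l had the highest mean of the reported Kcne genes, at 3.28 ± 2.34 CPM per kb in AAV-miR SOD1 and 3.17 ± 1.62 in control libraries.

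Among the inward rectifiers, 4 of 12 Kcnj genes were lower against both control groups and 0 higher, beside 12.1% and 10.2% of all genes. The median log2 fold change of the 12 was -0.11. Kcnj14 (chr7:45816460-45824782), a classical inward rectifier known from motor nuclei, was at 11.3, 14.98, 10.8 and 13.1 CPM in AAV-miR SOD1, 14.2, 16.9, 25.4, 46.7 and 43.97 CPM in AAV-miR ctrl and 17.1, 38.7, 34.9 and 33.5 CPM in Non-injected libraries. AAV-miR ctrl replicate 1 was the control within the AAV-miR SOD1 range, and the other 8 were above it. As a log2 fold change this was -1.23 ± 0.36 against AAV-miR ctrl, -1.31 ± 0.38 against Non-injected mice and -1.27 ± 0.34 against both (adjusted p = 0.0960), and -0.85 ± 0.29 among libraries numbered 1 to 4. Kcnj12 (chr11:61022564-61071131), another strong rectifier, was at 8.73, 6.24, 7.11 and 11.3 CPM in AAV-miR SOD1, 3.27, 11.2, 10.9, 17.6 and 13.8 CPM in AAV-miR ctrl and 13.98, 20.95, 23.05 and 45.7 CPM in Non-injected libraries. It was below all Non-injected libraries in all 4 AAV-miR SOD1 libraries, while AAV-miR ctrl replicate 1 was the lowest of the 13. In the edgeR fit the log2 fold change was -1.64 ± 0.45 against Non-injected mice (adjusted p = 0.140) and -1.04 ± 0.39 against both control groups (adjusted p = 0.145), and -0.53 ± 0.37 among libraries numbered 1 to 4. The threshold was not passed against AAV-miR ctrl.

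Kcnj3 and Kcnj9 encode subunits of the G protein-gated channels through which transmitters inhibit neurons. Kcnj9 (chr1:172320501-172329318) was at 1.91, 4.13, 1.47 and 3.03 CPM in AAV-miR SOD1, 2.61, 4.24, 2.85, 9.41 and 9.68 in AAV-miR ctrl and 3.41, 8.54, 7.57 and 5.43 in Non-injected libraries, and Kcnj3 (chr2:55435970-55598145) at 9.26, 10.8, 12.5 and 16.4, 14.8, 16.2, 16.8, 16.7 and 16.6 and 20.9, 25.9, 14.3 and 11.9 CPM. For Kcnj9 the high values were those of AAV-miR ctrl replicates 5 and 6 and Non-injected replicates 3 and 5, and 3 control libraries lay within the AAV-miR SOD1 range. For Kcnj3, replicate 4 lay among the controls and Non-injected replicate 6 was below replicate 3. The log2 fold changes were -1.19 ± 0.45 and -0.49 ± 0.22 (adjusted p = 0.147 and 0.211), and -0.71 ± 0.44 and -0.65 ± 0.22 among libraries numbered 1 to 4. The third G protein-gated member with counts, Kcnj5, varied from 0.759 to 11.4 CPM in AAV-miR SOD1 and from 0 to 6.19 CPM in control libraries.

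The remaining Kcnj genes did not pass. Kcnj10 and Kcnj16, the inward rectifiers of astrocytes and oligodendrocytes, had means of 15.4 ± 5.81 and 3.34 ± 1.46 CPM in AAV-miR SOD1 and of 16.4 ± 7.52 and 3.19 ± 1.39 CPM in control libraries. The pore genes of ATP-sensitive channels varied mainly within groups. Kcnj8 was at 9.48, 8.45, 36.3 and 33.1 CPM in AAV-miR SOD1 and ranged over 10.4 to 34.8 CPM in control libraries. Kcnj11 was at 5.34, 3.696, 34.4 and 26.4 CPM and ranged over 5.77 to 42.7 CPM. In both, replicates 3 and 4 of AAV-miR SOD1 were high and replicates 1 and 2 low.

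Of the tandem-pore Kcnk genes, whose channels are open at rest, 3 of 10 were lower and 1 higher against both control groups. Of all genes 12.1% were lower and 10.2% higher, and the median log2 fold change of the 10 was -0.10. Kcnk3 (chr5:30588170-30625271), the acid-sensitive leak channel that transmitters close to excite motoneurons, was at 28.9, 38.3, 18.6 and 27.9 CPM in AAV-miR SOD1, 26.6, 29.5, 38.7, 56.7 and 62.3 CPM in AAV-miR ctrl and 39.5, 69.4, 63.4 and 73.9 CPM in Non-injected libraries. All 4 libraries were below all Non-injected ones, and AAV-miR ctrl replicates 1 and 3 lay among them. In the edgeR fit the log2 fold change was -1.11 ± 0.31 against Non-injected mice (adjusted p = 0.140) and -0.85 ± 0.27 against both control groups (adjusted p = 0.112), and -0.52 ± 0.27 among libraries numbered 1 to 4. Kcnk1 (chr8:125995170-126030685), a weakly conducting leak channel, was at 19.5, 22.4, 17.2 and 26.1 CPM in AAV-miR SOD1, 21.9, 26.98, 32.3, 55.1 and 53.2 CPM in AAV-miR ctrl and 18.1, 45.3, 44.6 and 40.8 CPM in Non-injected libraries. Non-injected replicate 2 and AAV-miR ctrl replicate 1 fell within the AAV-miR SOD1 range and the other 7 controls were above it. Against both control groups this gave a log2 fold change of -0.82 ± 0.30 (adjusted p = 0.136), and -0.44 ± 0.28 among libraries numbered 1 to 4.

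Kcnk4 (chr19:6923966-6934515), a mechanically gated channel of the nodes of Ranvier, was low throughout, at 1.02, 1.58, 0.663 and 0.885 CPM in AAV-miR SOD1, 0.530, 3.61, 2.3997, 3.02 and 5.55 CPM in AAV-miR ctrl and 1.98, 4.78, 5.57 and 2.62 CPM in Non-injected libraries. AAV-miR ctrl replicate 1 was below all 4 AAV-miR SOD1 libraries and the other 8 controls were above all of them. With a log2 fold change of -1.69 ± 0.54 against both control groups (adjusted p = 0.109), it was farthest from 0 among the 25 members, and -1.35 ± 0.60 among libraries numbered 1 to 4. Kcnk6 (chr7:29221926-29232515) was 1 of the 2 members on the higher side, at 11.8, 6.91, 1.28 and 3.92 CPM in AAV-miR SOD1, 2.695, 3.42, 0.675, 5.65 and 3.25 in AAV-miR ctrl and 1.71, 1.48, 3.65 and 2.53 in Non-injected libraries. Replicates 1 and 2 were above all controls, and replicates 3 and 4 lay among them. In the edgeR fit against all controls this gave a log2 fold change of 1.13 ± 0.52 (adjusted p = 0.215), and 1.68 ± 0.65 among libraries numbered 1 to 4. Kcnk10, at 1.73 ± 0.233 CPM in AAV-miR SOD1 and 2.23 ± 0.966 CPM in control libraries, Kcnk13, known from microglia, at 1.77 ± 1.15 and 2.06 ± 1.23, Kcnk2 at 9.904 ± 4.401 and 9.26 ± 3.48, and Kcnk9 at 0.553 ± 0.352 and 0.557 ± 0.493 did not pass.

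**Figure D4:**
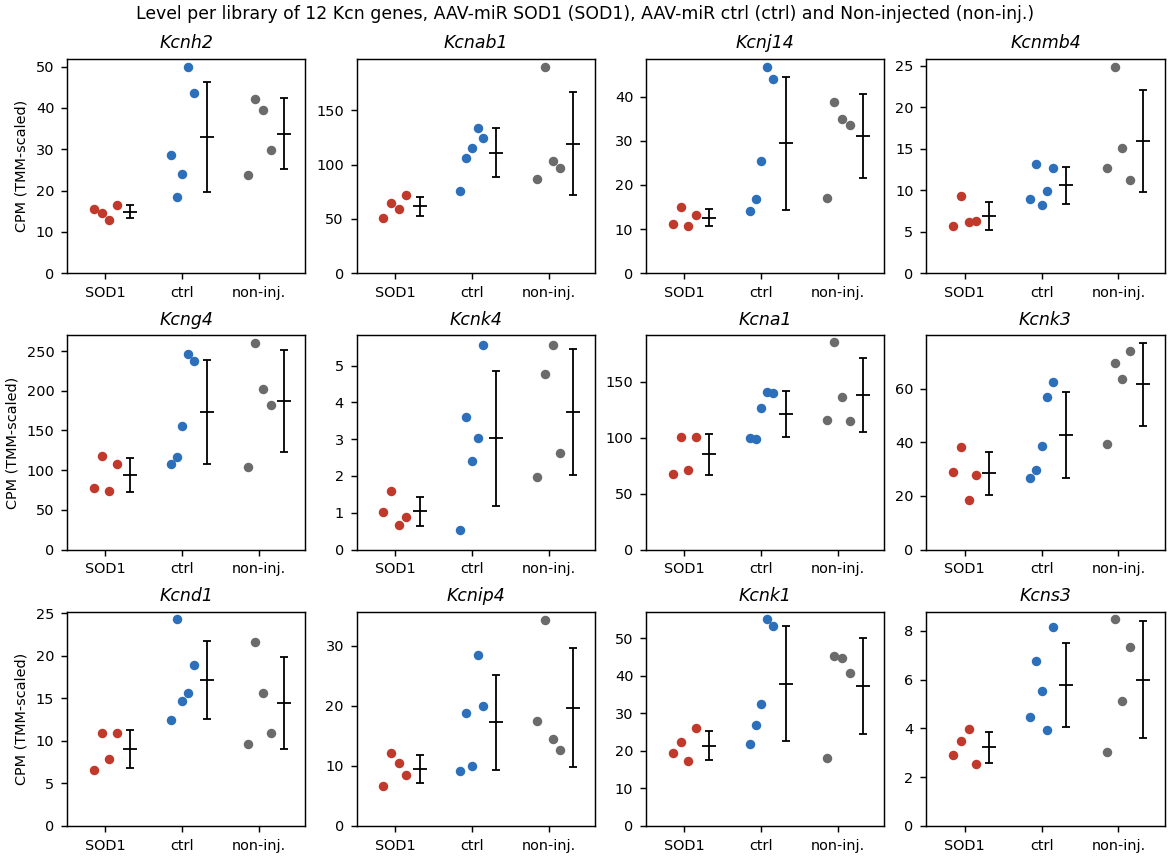
CPM in each of the 13 libraries for 12 Kcn genes with a p among the smallest in AAV-miR SOD1 against both control groups, 1 panel per gene, with points for libraries and bars for group mean ± SD. The AAV-miR SOD1 points of Kcnh2 and Kcnab1 lie below all 9 control points, and in the other panels at least 1 control point lies among them or below them.

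Of the calcium-activated channels, the large-conductance pore gene Kcnma1 did not pass, at 19.3, 23.2, 20.3 and 28.3 CPM in AAV-miR SOD1, 21.8, 20.2, 21.4, 37.1 and 27.05 in AAV-miR ctrl and 21.8, 30.1, 36.3 and 45.7 in Non-injected libraries. Kcnmb4 (chr10:116417861-116473878), its neuronal beta subunit, was at 5.698, 9.36, 6.16 and 6.32 CPM in AAV-miR SOD1, 8.97, 13.2, 8.25, 9.91 and 12.7 CPM in AAV-miR ctrl and 12.7, 24.8, 15.1 and 11.2 CPM in Non-injected libraries. All AAV-miR SOD1 libraries were below all Non-injected ones, and replicate 2 was above AAV-miR ctrl replicates 1 and 4. The corresponding log2 fold change was -0.62 ± 0.28 against AAV-miR ctrl, -1.21 ± 0.29 against Non-injected mice and -0.92 ± 0.26 against both (adjusted p = 0.0970), and -0.98 ± 0.30 among libraries numbered 1 to 4. AAV-miR ctrl was itself lower than Non-injected by the unadjusted threshold, with a log2 fold change of -0.59 ± 0.27. This value was -0.01 with both libraries of contradicting headers exchanged, -0.36 without both and -0.29 without Non-injected replicate 3. Kcnmb1, a beta subunit of smooth muscle, had means of 0.277 ± 0.285 CPM in AAV-miR SOD1 and 1.28 ± 1.34 CPM in control libraries and did not pass.

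The small-conductance channels Kcnn1 to Kcnn3 produce the long afterhyperpolarization that sets motoneuron firing rate, and none of them passed against both control groups. Kcnn2 was at 6.28, 10.1, 5.31 and 7.78 CPM in AAV-miR SOD1, 7.42, 8.34, 9.97, 9.62 and 9.99 in AAV-miR ctrl and 8.44, 15.03, 12.5 and 9.54 in Non-injected libraries. It passed the unadjusted threshold against Non-injected mice, with a log2 fold change of -0.63 ± 0.26 (adjusted p = 0.201), although replicate 2 was above Non-injected replicates 2 and 6. Kcnn3 was at 1.47 ± 0.611 CPM in AAV-miR SOD1 and 2.53 ± 1.34 CPM in control libraries. Kcnn1 was split within AAV-miR SOD1, at 6.05, 7.01, 21.4 and 24.7 CPM, with replicates 1 and 2 below and replicates 3 and 4 within or above the control range of 12.5 to 23.2 CPM.

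Kcnn4 (chr7:24370263-24386690), the intermediate-conductance channel of red cells and immune cells, was the other member on the higher side. It was at 95.9, 90.005, 16.3 and 17.4 CPM in AAV-miR SOD1, 11.3, 9.97, 14.5, 25.4 and 42.9 CPM in AAV-miR ctrl and 7.57, 10.7, 50.2 and 23.1 CPM in Non-injected libraries. Replicates 1 and 2 were above all controls, and replicates 3 and 4 lay among them. Together these values gave a log2 fold change of 1.33 ± 0.57 (adjusted p = 0.190), and 2.44 ± 0.57 among libraries numbered 1 to 4. The sodium-activated channel genes did not pass: Kcnt1 was at 7.56 ± 2.12 CPM in AAV-miR SOD1 and 9.64 ± 2.2998 CPM in control libraries, and Kcnt2 at 2.99 ± 0.759 and 3.18 ± 0.840 CPM.

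Between AAV-miR ctrl and Non-injected mice, the comparison of a control vector with no injection, 6 members passed the unadjusted threshold, each with an adjusted p of 0.9999. Kcna7, Kcnj12, Kcnk12 and Kcnmb4 were lower in AAV-miR ctrl. Kcna7, a skeletal muscle and heart channel, was at 0.0884, 1.59, 1.35, 4.86 and 2.67 CPM in AAV-miR ctrl and 0.738, 1.88, 9.84 and 29.1 in Non-injected libraries. Kcnk12 was at 1.24, 0.626, 2.3997, 2.103 and 1.73 CPM in AAV-miR ctrl and 0.738, 3.47, 20.4 and 9.72 in Non-injected libraries. In both, Non-injected replicates 5 and 6 were high and replicates 2 and 3 were within the AAV-miR ctrl range or near it. In AAV-miR SOD1, Kcnk12 was at 15.9, 3.65, 0.853 and 0.948 CPM, with replicate 1 high.

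Kcnip2 and Kcnu1 were higher in AAV-miR ctrl. Kcnip2, best known from the heart, was at 0.133, 9.01, 5.32, 1.03 and 0.440 CPM in AAV-miR ctrl and 0.231, 0, 0.375 and 0 CPM in Non-injected libraries. Its high value in AAV-miR ctrl replicate 3 came from a library with a contradicting header, and with both such libraries exchanged its log2 fold change went from 4.27 ± 1.39 to -0.82. Kcnu1, a channel of sperm, was at 0.486, 1.16, 1.72, 1.95 and 0.135 CPM in AAV-miR ctrl and 0.231, 0.0569, 0.350 and 0.477 in Non-injected libraries, with AAV-miR ctrl replicate 6 among the Non-injected values. The number of members passing in this comparison was 3 without AAV-miR ctrl replicate 4, beside 3.08% of all genes, and 3 without Non-injected replicate 5, beside 3.51%.

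Genes that work with potassium channels but carry no Kcn symbol were taken from a list of 29, of which 28 were tested (Lrrc26 was too low). With both control groups as the reference 12 were lower and 0 higher at the unadjusted threshold, and 0 passed the adjusted one. Against AAV-miR ctrl 10 were lower and against Non-injected mice 11, with 0 higher in either. Between AAV-miR ctrl and Non-injected mice 1 was lower (Amigo1). Of all genes 12.1% were lower against both control groups, 8.54% against AAV-miR ctrl, 11.5% against Non-injected mice and 2.24% between the control groups. The list was chosen with earlier results of these data known and uses the same libraries, so it is not separate evidence.

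Amigo1, a membrane protein that acts as an auxiliary subunit of Kcnb channels, was among the 12. It was at 8.503, 11.9, 7.72 and 11.6 CPM in AAV-miR SOD1, 9.46, 11.5, 14.5, 16.9 and 22.7 CPM in AAV-miR ctrl and 19.5, 21.01, 22.7 and 25.2 CPM in Non-injected libraries. All AAV-miR SOD1 libraries were below all Non-injected ones, and AAV-miR ctrl replicates 1 and 3 lay among them. Its log2 fold change against both control groups was -0.88 ± 0.24 (adjusted p = 0.0960). Vapb, a tether of the endoplasmic reticulum, had a log2 fold change of -0.94 ± 0.32 (adjusted p = 0.123), and its relative Vapa did not pass.

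Of the auxiliary subunits of Kcnd channels, Dpp6 was at 25.2, 39.6, 21.7 and 39.8 CPM in AAV-miR SOD1, 36.5, 47.8, 49.6, 78.3 and 69.3 CPM in AAV-miR ctrl and 35.6, 81.03, 73.04 and 58.2 CPM in Non-injected libraries, with replicates 2 and 4 above Non-injected replicate 2 and AAV-miR ctrl replicate 1. Its log2 fold change was -0.90 ± 0.27 (adjusted p = 0.103), and that of Dpp10 was -0.59 ± 0.20 (adjusted p = 0.120). Cntnap2 and Cntn2, which hold Kcna channels beside the node, had log2 fold changes of -0.56 ± 0.24 and -0.74 ± 0.28, and the scaffold Dlg4 of -0.85 ± 0.32 (adjusted p = 0.193, 0.148 and 0.141). Others at the threshold included Abcc8, Fgf12 and Hcn4. Hcn4, a pore of the hyperpolarization-activated current, had a log2 fold change of -1.35 ± 0.58 (adjusted p = 0.192). It was near the floor, at 0.134 to 0.506 CPM in AAV-miR SOD1 and 0.398 to 2.13 CPM in control libraries, with AAV-miR ctrl replicate 6 highest. Rest, a repressor of neuronal genes including several potassium channels, did not pass, with means of 25.7 ± 10.6 CPM in AAV-miR SOD1, 17.2 ± 3.61 CPM in AAV-miR ctrl and 17.01 ± 6.69 CPM in Non-injected libraries. AAV-miR SOD1 replicates 1 and 2, at 35.4 and 34.2 CPM, were above all controls. Replicates 3 and 4, at 17.5 and 15.6 CPM, lay among the controls, which ranged over 9.965 to 24.4 CPM.

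Cell type markers differed between the groups in the same libraries. At the unadjusted threshold against both control groups, 6 of 6 motoneuron markers were lower in AAV-miR SOD1, with a median log2 fold change of -1.13. Beside this, 12.1% of all genes were lower and 10.2% higher, with a median of -0.06. Motoneuron sums in AAV-miR ctrl replicates 1, 3 and 4 and Non-injected replicate 2 lay within the AAV-miR SOD1 range of 523 to 1025 CPM. The higher sums were those of the libraries numbered 5 and 6 and of Non-injected replicate 3. All 5 erythroid markers tested were higher, with sums of 15036 to 33640 CPM in AAV-miR SOD1, 2529 to 20457 in AAV-miR ctrl and 3977 to 14624 in Non-injected libraries. Of 6 microglial markers 3 were higher, with sums of 578 to 819, 326 to 975 and 209 to 503 CPM in the same order. Of the astrocyte, oligodendrocyte, endothelial and pericyte, inhibitory interneuron and muscle markers 0 passed. No marker was at 0 in all libraries, and 1 interneuron marker was at 0 in at least 1 library. The part of these cells in the potassium channel results was not tested.

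The levels of 4 members, chosen after their values were seen, are set beside these sums as a description of the libraries. Because of that choice they say nothing about the other members. AAV-miR ctrl replicates 5 and 6 and Non-injected replicate 3 had the 3 highest values of Kcng4 (246, 238 and 260.2 CPM) beside motoneuron sums of 2262, 1895 and 2319 CPM. Kcnn4 was highest in AAV-miR SOD1 replicates 1 and 2 (95.9 and 90.005 CPM), whose erythroid sums of 33640 and 31777 CPM were also the highest. The next highest Kcnn4 values, 50.2 and 42.9 CPM in Non-injected replicate 5 and AAV-miR ctrl replicate 6, stood beside erythroid sums of 5664 and 6113 CPM. AAV-miR SOD1 replicate 4 and AAV-miR ctrl replicate 1, with sums of 22350 and 20457 CPM, had Kcnn4 at 17.4 and 11.3 CPM. Kcnj11 was lowest in AAV-miR SOD1 replicate 2 (3.696 CPM), where the muscle sum was lowest at 5649 CPM, and 41.01 CPM in AAV-miR ctrl replicate 3, where that sum was highest at 86849 CPM. Kcnj10 was highest in AAV-miR ctrl replicate 4 (31.9 CPM), which also had the highest astrocyte sum, 651 CPM. The second highest Kcnj10 value, 22.9 CPM in AAV-miR SOD1 replicate 2, stood beside a sum of 381 CPM.

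**Figure D5:**
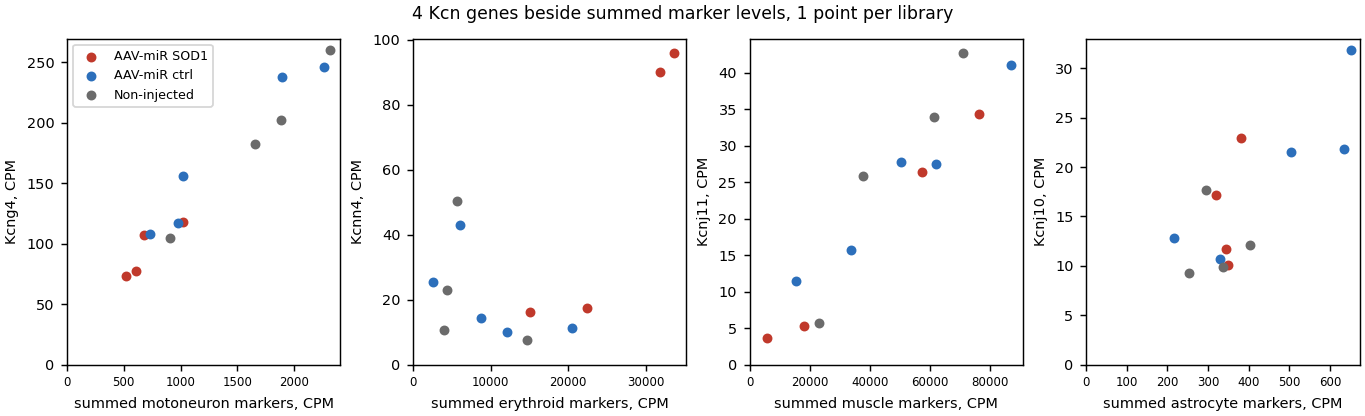
Level in CPM of 4 Kcn genes against the summed CPM of a marker list, with 1 point per library coloured by group, in 4 panels. The AAV-miR SOD1 libraries lie at motoneuron sums of 523 to 1025 CPM, and replicates 1 and 2 lie apart at the top right of the Kcnn4 panel.

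As a further description computed after the values were seen, each of the 25 members was divided by the motoneuron marker sum of its library. Of the 23 members on the lower side, the mean ratio in AAV-miR SOD1 was higher than in control libraries for 19 and lower for 4 (Kcnh2, Kcnj14, Kcnj9 and Kcnk4). For 0 of the 23 were all AAV-miR SOD1 ratios below all control ratios, and for 0 were they all above. Kcng4 amounted to 11.5 to 15.9% of the motoneuron sum in AAV-miR SOD1 and 10.8 to 15.2% in control libraries. Kcnh2 amounted to 1.41 to 2.55% and 1.801 to 3.89%, Kcnab1 to 6.27 to 11.3% and 5.48 to 11.3%, and Kcnk4 to 0.127 to 0.169% and 0.0724 to 0.371%. Before the division, Kcnab1 and Kcnh2 alone among the 23 did not overlap with the control libraries. The 6 markers in the divisor were themselves lower in AAV-miR SOD1, with a median log2 fold change of -1.13, which raises the ratios there. The 23 were picked as lower, and the 4 named are those with a log2 fold change below -1.13. The split therefore adds nothing to the fold changes given above. The same ratios were not computed over all genes, so they say nothing about a cause, which was not tested.

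Libraries also differed in the level of the members as a whole. The median deviation of the members' log2 CPM from their mean over all libraries was -0.53, -0.15, -0.65 and -0.11 in AAV-miR SOD1 replicates 1 to 4. It was -0.21, 0.20, 0.16, 0.22 and 0.26 in AAV-miR ctrl replicates 1, 3, 4, 5 and 6, and 0.02, 0.50, 0.28 and 0.12 in Non-injected replicates 2, 3, 5 and 6. AAV-miR SOD1 replicates 1 and 3 were lowest and Non-injected replicate 3 highest, and AAV-miR ctrl replicate 1 lay within the AAV-miR SOD1 range. Leaving out AAV-miR SOD1 replicate 1 lowered the number of members passing against both control groups to 13, all lower, beside 12.3% of all genes in both directions. Leaving out replicate 3 lowered it to 15, 13 lower and 2 higher, beside 20.8%. Against AAV-miR ctrl the number was 8 without AAV-miR SOD1 replicate 1, all lower, beside 6.68% of all genes. It was 9 of 74 without replicate 3, 6 lower and 3 higher, beside 14.8%, so that a smaller share of the members than of all genes passed. Without AAV-miR ctrl replicate 6 it was 9 of 73, 8 lower and 1 higher, beside 9.23%. Against Non-injected mice it was 13 without AAV-miR SOD1 replicate 1, beside 13.6%, and 11 without Non-injected replicate 3, beside 13.99%, all lower.

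The 18 members below the count rule were Kcna4, Kcna10, Kcne1, Kcne2, Kcng3, Kcnh3, Kcnh4, Kcnj1, Kcnj4, Kcnj6, Kcnk7, Kcnk15, Kcnk16, Kcnk18, Kcnmb2, Kcnmb3, Kcns2 and Kcnv2. Just inside the rule, Kcnh6 and Kcnh8 reached 10 counts in 4 libraries, and just outside it Kcna4 and Kcnmb2 did so in 3. Kcna4, a further A-type gene, had 44, 33 and 31 counts in AAV-miR ctrl replicates 1 and 3 and Non-injected replicate 6, and 6 or fewer in the other 10 libraries. Kcnmb2, a beta subunit of the large-conductance channel, entered the edgeR fit although it is below the rule, and it is not among the 74. Its counts were 2, 3, 2 and 2 in AAV-miR SOD1, 23, 32, 8, 1 and 25 in AAV-miR ctrl and 1, 0, 4 and 7 in Non-injected libraries, so that AAV-miR ctrl replicates 1, 3 and 6 were high. It passed the unadjusted threshold as lower in AAV-miR SOD1 than in AAV-miR ctrl (log2 fold change -2.77 ± 0.95, adjusted p = 0.271) and as higher in AAV-miR ctrl than in Non-injected mice (2.998 ± 0.94, adjusted p = 1.00), and would add 1 to each of those counts. Kcnk16 had 0 counts in every library, which at 3 counts allows up to 0.0802 to 0.216 CPM, for counting error only. Kcnj6, the remaining G protein-gated subunit, reached 10 counts in 2 libraries.

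Exons of 24 of the 76 reported members overlap those of another counted gene, over 9 to 2355 bases, for the most part on the opposite strand. Among the members described these include Kcnab1, Kcnip4, Kcnj3, Kcnj9, Kcnk1, Kcnk3, Kcnk4 and Kcnmb4. Their counts may have lost or gained reads there, since the strand setting of the counting is not given in the sources used here. Kcnh2, Kcna1, Kcng4 and Kcnj14 have no such overlap.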

How the data were processed

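The deposited values are raw counts of reads per gene and library, with Ensembl identifiers. The authors used cutadapt 1.8, STAR 2.5.2b and HTSeq 0.6.1 with the GRCm38 genome, per the submitters' processing notes. The annotation release and strand setting are not given in the sources used here. Libraries were made with the SMARTer Ultra Low and Nextera XT kits, per the labels' protocols, and carry no molecular identifiers. Reads with several alignments, 42.3 to 56.8% of all, and the other summary rows stayed out.

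Names, positions and exon lengths come from GENCODE M21, in which 48349 of 48709 identifiers were found. Counts were tested with edgeR 4.0.16 in R 4.3.3 (filterByExpr with a minimum of 10 counts, TMM scaling, quasi-likelihood F test, Benjamini-Hochberg over 17403 genes). All 13 libraries and 3 groups shared 1 fit without covariates. Given levels are TMM-scaled CPM. The pipeline was tested on simulated data. DESeq2 1.42.0, other scaling, no filter, a replicate block, left-out libraries and exchanged headers were alternatives. Members, partner genes, markers and named genes were chosen with earlier results of these data known. Named are members at an unadjusted p under 0.05, the highest of each subfamily and a list of channels of motoneurons and spinal glia. Each library is 1 mouse. Some genes that enter the fits and counts are not reported here by name or in the plots.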

Additional observations from a re-analysis of the deposited data

Results flagged for a closer look

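Among 78 groups of 4 or 5 libraries examined (25 members and the median over members, in 3 groups), 3 had a lowest library whose gap to the next exceeded Dixon's 95% critical value. About 1 in 20 groups is expected to do so, which is 3.9 of 78.

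Kcnk1, a leak channel gene, was at 18.1 CPM in Non-injected replicate 2, while the other Non-injected libraries lay between 40.8 and 45.3 CPM. Kcnj12, an inward rectifier gene, was at 3.27 CPM in AAV-miR ctrl replicate 1, while the other AAV-miR ctrl libraries lay between 10.9 and 17.6 CPM. In that library, the median deviation of all members from their means was -0.21 on the log2 scale, against 0.16 to 0.26 in the rest of the group. It was also the library without which edgeR called 9 members lower against both control groups. The cause was not tested.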

How the results depend on the processing

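Over 21 settings, counts stayed within 1.5 times their main value, and medians within the spread between libraries, in 228 cases. In 18 a count was lower by more than that and in 4 higher, and no median changed sign. Single genes at the unadjusted threshold kept their direction in all cases but 1, and 28 gained an adjusted call. Kcnip2 between AAV-miR ctrl and Non-injected mice went to -0.82 with the headers exchanged. At an adjusted p under 0.05, DESeq2 called 1 member against AAV-miR ctrl, 8 against Non-injected mice and 10 against both control groups.

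With the replicate number as a block, 6 members passed the unadjusted threshold against AAV-miR ctrl, 4 lower and 2 higher, beside 8.82% of all genes in both directions. Against Non-injected mice 13 passed, 10 lower and 3 higher, beside 8.28%, between the control groups 3, beside 2.67%, and against both 14, 11 lower and 3 higher, beside 11.1%. Of 8 same-numbered pairs of libraries 3 correlated above 0.1 (r from -0.19 to 0.24), and the numbers were not taken to pair the libraries. Number and depth go together, since those numbered 5 and 6 held 29.7 to 37.4 megacounts and the others 13.9 to 23.1. Libraries numbered 1 to 4 gave 8 against AAV-miR ctrl, beside 4.88%. Exchanged headers gave 14 against Non-injected mice, beside 14.8%, and 3 between the control groups, beside 4.48%. Without both libraries, 11 passed against Non-injected mice, beside 12.7%, and 14 against both, beside 17.6%.

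With each replicate left out in turn, 8 to 20 members passed against AAV-miR ctrl, 11 to 29 against Non-injected mice, 3 to 8 between the control groups and 13 to 27 against both. The adjusted threshold called 0 to 0 in the first 3 comparisons and 0 to 9 in the last. Medians ran from -0.56 to -0.33, -0.70 to -0.44, -0.18 to -0.01 and -0.58 to -0.38. The cause was not tested for any of these.

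Each group had 4 or 5 mice, and the biological coefficient of variation over all genes was 0.470. Which size of difference is detectable in low members was not tested. The cord was frozen with its vertebrae, and no healthy mice were compared.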
